A study of Mus musculus with 8 samples.

Results

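The genes for the major milk proteins were examined in a genome-wide map of lysine 27 acetylation on histone H3 (H3K27Ac), which marks promoters and enhancers in use, in mouse breast tumors. There were 10 such genes of 21938 protein-coding genes in the annotation. They were the caseins Csn1s1, Csn2, Csn1s2a, Csn1s2b and Csn3, the whey protein genes Wap and Lalba, the milk fat globule genes Btn1a1 and Xdh, and Glycam1, which encodes a secreted mucin-like glycoprotein of milk. The genes were chosen by name, and the peaks examined were those in each gene body and the 50 kb on either side of it. The 5 caseins lie together on chromosome 5 and were read as a single window, chr5:87616208-87982665 (mm10), so that the 10 genes gave 6 windows of 949 kb in all.

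All tumors came from mice that carried the polyoma middle T oncogene (PyMT) and lacked Rag1 (Rag1KO), on the Balb/c strain background, and wild-type CD4+ T cells had been injected when the mice were 4 weeks old. Control tumors (PyMT;Rag1KO, n = 2) had no further transgene, and test tumors (K14-TSLPtg;PyMT;Rag1KO, n = 2) overexpressed the cytokine TSLP, thymic stromal lymphopoietin, from a transgene with the promoter of keratin 14, a gene of basal epithelial cells. In the study PyMT was driven by the MMTV promoter, which is active in mammary epithelium, and Rag1-deficient mice make no T or B cells of their own. The sample names use the word tumor for the control samples and cyst for the test samples. The labels give no age at collection for the tumors profiled. In the study no mouse gave more than one tumor.

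Caseins form the micelles that carry calcium and phosphate in milk, and Csn3, κ-casein, coats and stabilises them. Casein, Wap and Lalba transcription is switched on in the alveolar luminal cells of the mammary gland in pregnancy and lactation, when prolactin binds its receptor, the kinase JAK2 phosphorylates STAT5, and STAT5 binds DNA motifs called GAS sites together with glucocorticoid receptor, NFI factors, C/EBPβ and ELF5. Btn1a1, butyrophilin, and Xdh, xanthine dehydrogenase, are used to wrap lipid droplets in membrane as they leave the cell.

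Peak lists held between 59762 and 69861 intervals per tumor and covered between 2.36% and 2.68% of the genome. They give positions only, so the height of a peak was not measured, and the read depth behind each list is unknown. A place without a peak may still carry the mark at a level that was not called. Of 10 luminal epithelial marker genes, 9 had a promoter peak in every tumor, as a label of breast tumor calls for, beside 49.6% of all protein-coding genes. Over all protein-coding genes the share with a promoter peak was 53.5%, 53.9%, 54.1% and 52.0% in control 1, control 2, test 1 and test 2. For markers of other cells the counts were lower in test 2 than in the other tumors. In the order control 1, control 2, test 1 and test 2, a promoter peak was present at 7, 3, 5 and 0 of 10 myoepithelial markers, and of 9 fibroblast markers the numbers were 4, 3, 3 and 0. Of 8 endothelial markers they were 4, 4, 2 and 0, of 8 T cell markers 2, 1, 2 and 0, and of 7 adipocyte markers 1, 1, 1 and 0. Of 9 myeloid markers they were 7, 6, 6 and 5.

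The first comparison asked which milk protein genes had a peak at the promoter. The promoter was taken as 1 kb on either side of the annotated start. A promoter peak was present in all 4 tumors at Csn3, Wap, Lalba, Btn1a1 and Xdh. It was absent in all 4 tumors at Csn1s1, Csn2, Csn1s2a, Csn1s2b and Glycam1. So no milk protein gene gained or lost a promoter peak between the groups or between tumors of a group. The 5 of 10 genes with a promoter peak in every tumor stood beside 49.6% of all protein-coding genes, and the 5 of 10 with none stood beside 42.8%, so that the list as a whole was near the background. Of 12 genes used by other tissues, such as albumin and insulin, 0 had a promoter peak in any tumor.

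The calcium-sensitive caseins, encoded by Csn1s1, Csn2, Csn1s2a and Csn1s2b, are among the most abundant proteins of mouse milk. None had a promoter peak in these tumors. Csn2 (chr5:87692624-87699630), which encodes β-casein, had no peak in its body in any tumor. Its start lay 25683 bp and 26019 bp from the nearest peak in control tumors and 25535 bp and 25576 bp in test tumors. That nearest peak was in the same intergenic place in every tumor, upstream of Csn2 at chr5:87725165-87726549. Peaks covered 869 bp of that place in control 1, 302 bp in control 2, 1046 bp in test 1 and 1344 bp in test 2. In control 1 and in test 1 these bases were split over 2 peaks.

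Csn1s1 (chr5:87666208-87682578), for αs1-casein, had the nearest peak 3049 bp from its start in control 1, 3632 bp in test 1 and 3077 bp in test 2, but 48530 bp away in control 2. Control 2 lacked both small regions that the other 3 tumors shared there, a region upstream at chr5:87662321-87663159 and a region in the gene body at chr5:87671950-87672359. The body region covered 288 bp, 166 bp and 244 bp in control 1, test 1 and test 2.

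Csn1s2a (chr5:87774567-87788797) and Csn1s2b (chr5:87808082-87824426) encode αs2-type caseins and had peaks inside their bodies rather than at their starts. The start of Csn1s2a was 7793 bp, 8809 bp, 7981 bp and 7635 bp from the nearest peak in control 1, control 2, test 1 and test 2. Peaks covered 11.3%, 1.78%, 5.13% and 11.5% of its body in the same order. The start of Csn1s2b was 2382 bp, 2545 bp and 2429 bp from a peak in control 1, control 2 and test 1, and 10137 bp in test 2. Its body was covered to 28.3%, 20.1%, 26.3% and 22.2%. Every tumor had peaks in both bodies, and the values of the groups overlapped.

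Csn3 (chr5:87925579-87932665) was the exception among the caseins. A single peak of the merged lists spanned its start in every tumor. It was 9035 bp wide in control 1, 8610 bp in control 2, 9194 bp in test 1 and 9074 bp in test 2. It joined 2, 1, 2 and 2 peaks as first called, in the same order. Among genes with a promoter peak, between 0.658% and 1.22% in a tumor had a peak that wide, and the median width of the widest promoter peak was between 1399 bp and 1589 bp. Peaks covered 82.4% and 75.7% of the Csn3 body in control tumors and 86.8% and 86.8% in test tumors.

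The acetylated bases of the casein cluster were concentrated in 3 domains. The widest, chr5:87866359-87881061, was 14703 bp and lay between genes, in the interval from the pseudogene Gm7337 to Odam, which encodes a tooth enamel-associated protein. It lay 44518 bp upstream of the Csn3 start. Peaks covered 94.9% and 82.7% of this domain in control and 97.8% and 99.8% in test tumors. In the merged lists the domain was 1 peak in test 2, 2 peaks in control 1, 3 in control 2 and 2 in test 1. Before merging, 5, 6, 5 and 4 peaks had been called there in control 1, control 2, test 1 and test 2. Only 86 of the 91238 regions made by joining the peaks of all tumors, or 0.0943%, were at least as wide. The second domain was the Csn3 promoter peak, chr5:87921645-87930838, a width reached by 0.433% of regions. The third, chr5:87818147-87822348, was 4202 bp inside Csn1s2b, and 3974 bp, 3286 bp, 4136 bp and 3635 bp of it were covered in control 1, control 2, test 1 and test 2. Together the 3 domains held 65.6%, 85.8%, 71.3% and 56.9% of all acetylated bases of the cluster in the same order.

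**Figure D1:**
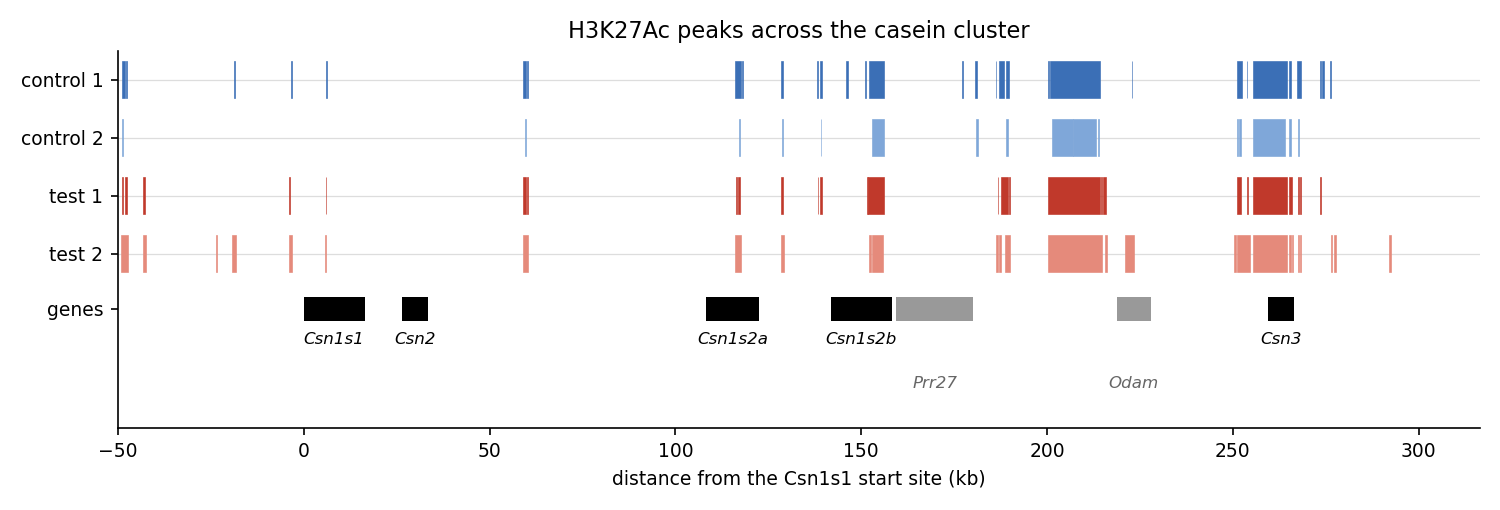
Positions of H3K27Ac peaks across the casein cluster in the 4 tumors, as distance in kb from the Csn1s1 start; each filled box is a peak, black bars are casein genes and grey bars Prr27 and Odam. The Csn1s1 and Csn2 genes and the stretch between them hold 1 peak or none in each tumor, peaks lie again in the flank before Csn1s1, and the wide domains lie between Csn1s2b and Odam and over the Csn3 start in every tumor.

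From the start of Csn1s1 to that of Csn3, acetylation was read in 4 parts. The Csn1s1 and Csn2 genes with the stretch between them, 33.4 kb, had 0.862% and 0% of bases in peaks in control tumors and 0.497% and 0.730% in test tumors. Between Csn2 and Csn1s2a, over 74.9 kb, the values were 1.16% and 0.403% in control and 1.40% and 1.79% in test tumors. Across Csn1s2a and Csn1s2b they were 15.4% and 7.87% in control and 12.7% and 12.4% in test tumors. From Csn1s2b to Csn3 they were 22.5% and 17.7% in control and 22.6% and 27.4% in test tumors. The order of these 4 parts, with the least next to Csn1s1 and the most next to Csn3, was the same in each tumor. The fall did not go on past Csn1s1, since the 50 kb before that gene had 3.19% and 0.854% in control and 2.94% and 9.54% in test tumors, in each tumor more than either of the first 2 parts. In the 50 kb after Csn3 the values were 4.20% and 0.316% in control and 1.79% and 3.42% in test tumors. Stretches of 55.7 kb, at chr5:87726550-87782201, and of 52.8 kb, at chr5:87672360-87725164, had no peak in any tumor. In control 2 the peak-free stretch that held Csn1s1 and Csn2 was 108 kb.

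Other genes between the caseins had few peaks at their starts. Prr27, Gm7337, Odam, BC037156, Gm25066, Gm42845 and Gm24314 had no promoter peak in any tumor, and Gm42794 had a promoter peak in control 1 alone. The Odam body was covered to 24.6% in test 2, against 1.85% in control 1 and 0% in control 2 and test 1.

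Printed for these genes is the DNA of promoters without a peak and of the acetylated domains, to show where GAS motifs lie. Capitals mark the GAS motif, TTCNNNGAA, which reads the same on both strands, and sequences run 5′ to 3′ along transcription. Positions are counted from the RefSeq start, which is 0. The stretches come from the GRCm38 genome, and motifs were found in the RefSeq promoter table, which runs from 250 bases before to 50 after each start. The first is the 200 bases before Csn1s1 (chr5:87666008-87666207, plus strand), with the motif at -100. The second is a 29-base site of the Csn2 promoter (chr5:87699500-87699528, minus strand), with the motif at -93. The third is a 29-base site at Csn1s2a (chr5:87774460-87774488, plus strand), with the motif at 20, just after the RefSeq start. The RefSeq start differed from the GENCODE start behind the gene coordinates and peak distances above by 0 bp at Csn1s1, 205 bp at Csn2 and 117 bp at Csn1s2a. The Csn2 site therefore lies inside the gene coordinates given, and the Csn1s2a site ends before its gene's coordinates begin. No base of these 3 stretches was in a peak in any tumor.
Csn1s1 upstream: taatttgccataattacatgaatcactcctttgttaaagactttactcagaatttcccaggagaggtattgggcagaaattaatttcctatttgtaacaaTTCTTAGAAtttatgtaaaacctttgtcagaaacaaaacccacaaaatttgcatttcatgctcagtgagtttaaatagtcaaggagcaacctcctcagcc
Csn2 site: tcacgtagacTTCTTGGAAttgaagggac
Csn1s2a site: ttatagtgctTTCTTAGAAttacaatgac

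From the acetylated domains the 200 bases with the most GAS motifs are given on the plus strand. The wide intergenic domain is shown at chr5:87867201-87867400, where all 200 bases were in a peak in control 1, test 1 and test 2 and 0 in control 2. The Csn3 domain is shown at chr5:87924519-87924718, just upstream of the Csn3 start, where 2 motifs lay. The Csn1s2b domain is shown at chr5:87820333-87820532. The Csn3 and Csn1s2b stretches lay wholly in a peak in every tumor.
Intergenic domain: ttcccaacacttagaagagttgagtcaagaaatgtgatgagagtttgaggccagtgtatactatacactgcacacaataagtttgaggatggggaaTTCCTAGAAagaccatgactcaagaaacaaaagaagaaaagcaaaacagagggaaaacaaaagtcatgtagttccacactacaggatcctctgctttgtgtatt
Csn3 domain: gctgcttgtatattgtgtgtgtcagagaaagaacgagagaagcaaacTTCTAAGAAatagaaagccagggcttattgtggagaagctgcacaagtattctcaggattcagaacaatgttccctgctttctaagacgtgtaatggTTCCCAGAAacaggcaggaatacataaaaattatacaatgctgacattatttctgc
Csn1s2b domain: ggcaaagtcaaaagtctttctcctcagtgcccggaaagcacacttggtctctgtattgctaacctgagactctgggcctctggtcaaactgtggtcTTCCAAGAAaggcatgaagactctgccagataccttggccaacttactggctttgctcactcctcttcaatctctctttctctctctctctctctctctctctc

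GAS motifs were no denser in acetylated than in other DNA of the cluster. Casein regions held 22 motifs in 56.1 kb, or 0.392 per kb, and the rest of the cluster held 133 in 310 kb, or 0.429 per kb. Regions with a peak in all 4 tumors held 0.335 motifs per kb over the whole series, 0.400 in the casein cluster and 0.435 in all 6 windows. The central 300 bases held a motif in 6 of the 36 such regions of the windows, or 16.7%, against 9.52% in the series. A match says only that these letters are present.

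Wap (chr11:6635482-6638637), the whey acidic protein gene, had a peak over its start in every tumor. The peak was 2610 bp wide in control 1, 1834 bp in control 2, 2690 bp in test 1 and 1895 bp in test 2, so the groups overlapped. Few other peaks lay within reach, and peaks covered 4.43% and 5.28% of the window in control and 5.36% and 4.46% in test tumors. Lalba (chr15:98480400-98482721), for α-lactalbumin, the regulatory subunit of lactose synthase, had promoter peaks of 3769 bp and 2298 bp in control and 4098 bp and 2792 bp in test tumors. In control 2 the start itself lay 83 bp outside the nearest peak. Peaks covered 67.3% and 64.1% of the Lalba body in control and 80.6% and 36.0% in test tumors. Control 1 and test 1 had the wider promoter peaks at both whey protein genes.

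The Wap and Lalba promoters, which carried the mark, held no GAS motif in the 300-base window. They held the ELF5 core, AGGAAG on either strand, marked here in capitals. The Wap stretch is chr11:6638650-6638849 and the Lalba stretch chr15:98482722-98482921, both on the minus strand and upstream of the annotated exons of the gene. All 200 bases were in a peak in every tumor at Wap and in 3 tumors at Lalba, where control 2 had 9 of them in a peak.
Wap upstream: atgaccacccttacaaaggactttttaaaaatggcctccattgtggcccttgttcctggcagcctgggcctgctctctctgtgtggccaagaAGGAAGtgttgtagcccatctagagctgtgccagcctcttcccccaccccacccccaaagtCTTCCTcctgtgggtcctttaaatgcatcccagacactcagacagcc
Lalba upstream: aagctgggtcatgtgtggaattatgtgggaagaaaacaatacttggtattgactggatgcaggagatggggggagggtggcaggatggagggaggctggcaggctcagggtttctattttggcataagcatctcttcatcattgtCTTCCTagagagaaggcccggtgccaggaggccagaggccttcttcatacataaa

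Glycam1 (chr15:103562759-103565081) had next to no peaks near it. The whole window held 0 peaks in 3 tumors and 1 peak in control 2, which covered 0.190% of the window. The nearest peak to its start was 54386 bp away in control 1, 50521 bp in control 2, 54401 bp in test 1 and 198817 bp in test 2. Its promoter held a GAS motif at -145 and an ELF5 core at -77, shown with the GAS motif in capitals (chr15:103565082-103565281, minus strand).
Glycam1 upstream: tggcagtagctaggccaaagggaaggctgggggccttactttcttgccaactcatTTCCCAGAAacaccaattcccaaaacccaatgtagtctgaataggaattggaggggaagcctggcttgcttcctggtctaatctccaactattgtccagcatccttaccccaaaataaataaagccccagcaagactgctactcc

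Of the 6 milk protein promoters found in the RefSeq table, GAS motifs were present in 4, those of Csn1s1, Csn2, Csn1s2a and Glycam1. All 4 lacked a promoter peak, and the promoters of Wap and Lalba had a peak and no motif in the 300 bases searched. Over the whole acetylated region at the start, GAS motifs numbered 2 at Wap, 3 at Lalba, 4 at Csn3, 1 at Xdh and 0 at Btn1a1, so their absence from the Wap and Lalba promoters holds for that short window only. Among the 32817 promoters searched, 8.29% held a GAS motif and 35.4% an ELF5 core. A full NFI site, TTGGC followed after 5 bases by GCCAA, was found in 0 of the 6 promoters and in 0.0366% of all. Csn1s2b, Csn3, Btn1a1 and Xdh were not matched in the table.

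Btn1a1 (chr13:23456992-23465901), the butyrophilin gene, lay in a window with many separate peaks. Its promoter peak was 2032 bp and 1162 bp in control and 2454 bp and 672 bp in test tumors. Peaks covered 34.8% and 23.4% of its body in control and 46.6% and 28.8% in test tumors. The window held 18, 20, 19 and 17 peaks in control 1, control 2, test 1 and test 2, and 4 neighbours, Abt1, C230035I16Rik, Gm46404 and Btn2a2, had promoter peaks in every tumor. Xdh (chr17:73883895-73950196) had a promoter peak of 5580 bp and 5473 bp in control and 5721 bp and 4480 bp in test tumors. A peak as wide was found at between 3.36% and 4.94% of genes with a promoter peak, so the Xdh peak, like that of Csn3, was wide. An intronic pseudogene of Xdh, CT025731.2, had a promoter peak in both control tumors and in test 1. Its start lay in the peak in test 1 but 27 bp and 92 bp outside it in control 1 and control 2. Near Wap, Tbrg4 and Ccm2 had promoter peaks in every tumor, as did Kansl2 near Lalba. Olfr279, an olfactory receptor gene near Lalba, had a promoter peak in control 2 and test 2, and the small nucleolar RNA gene Snora2b in control 2 alone.

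**Figure D2:**
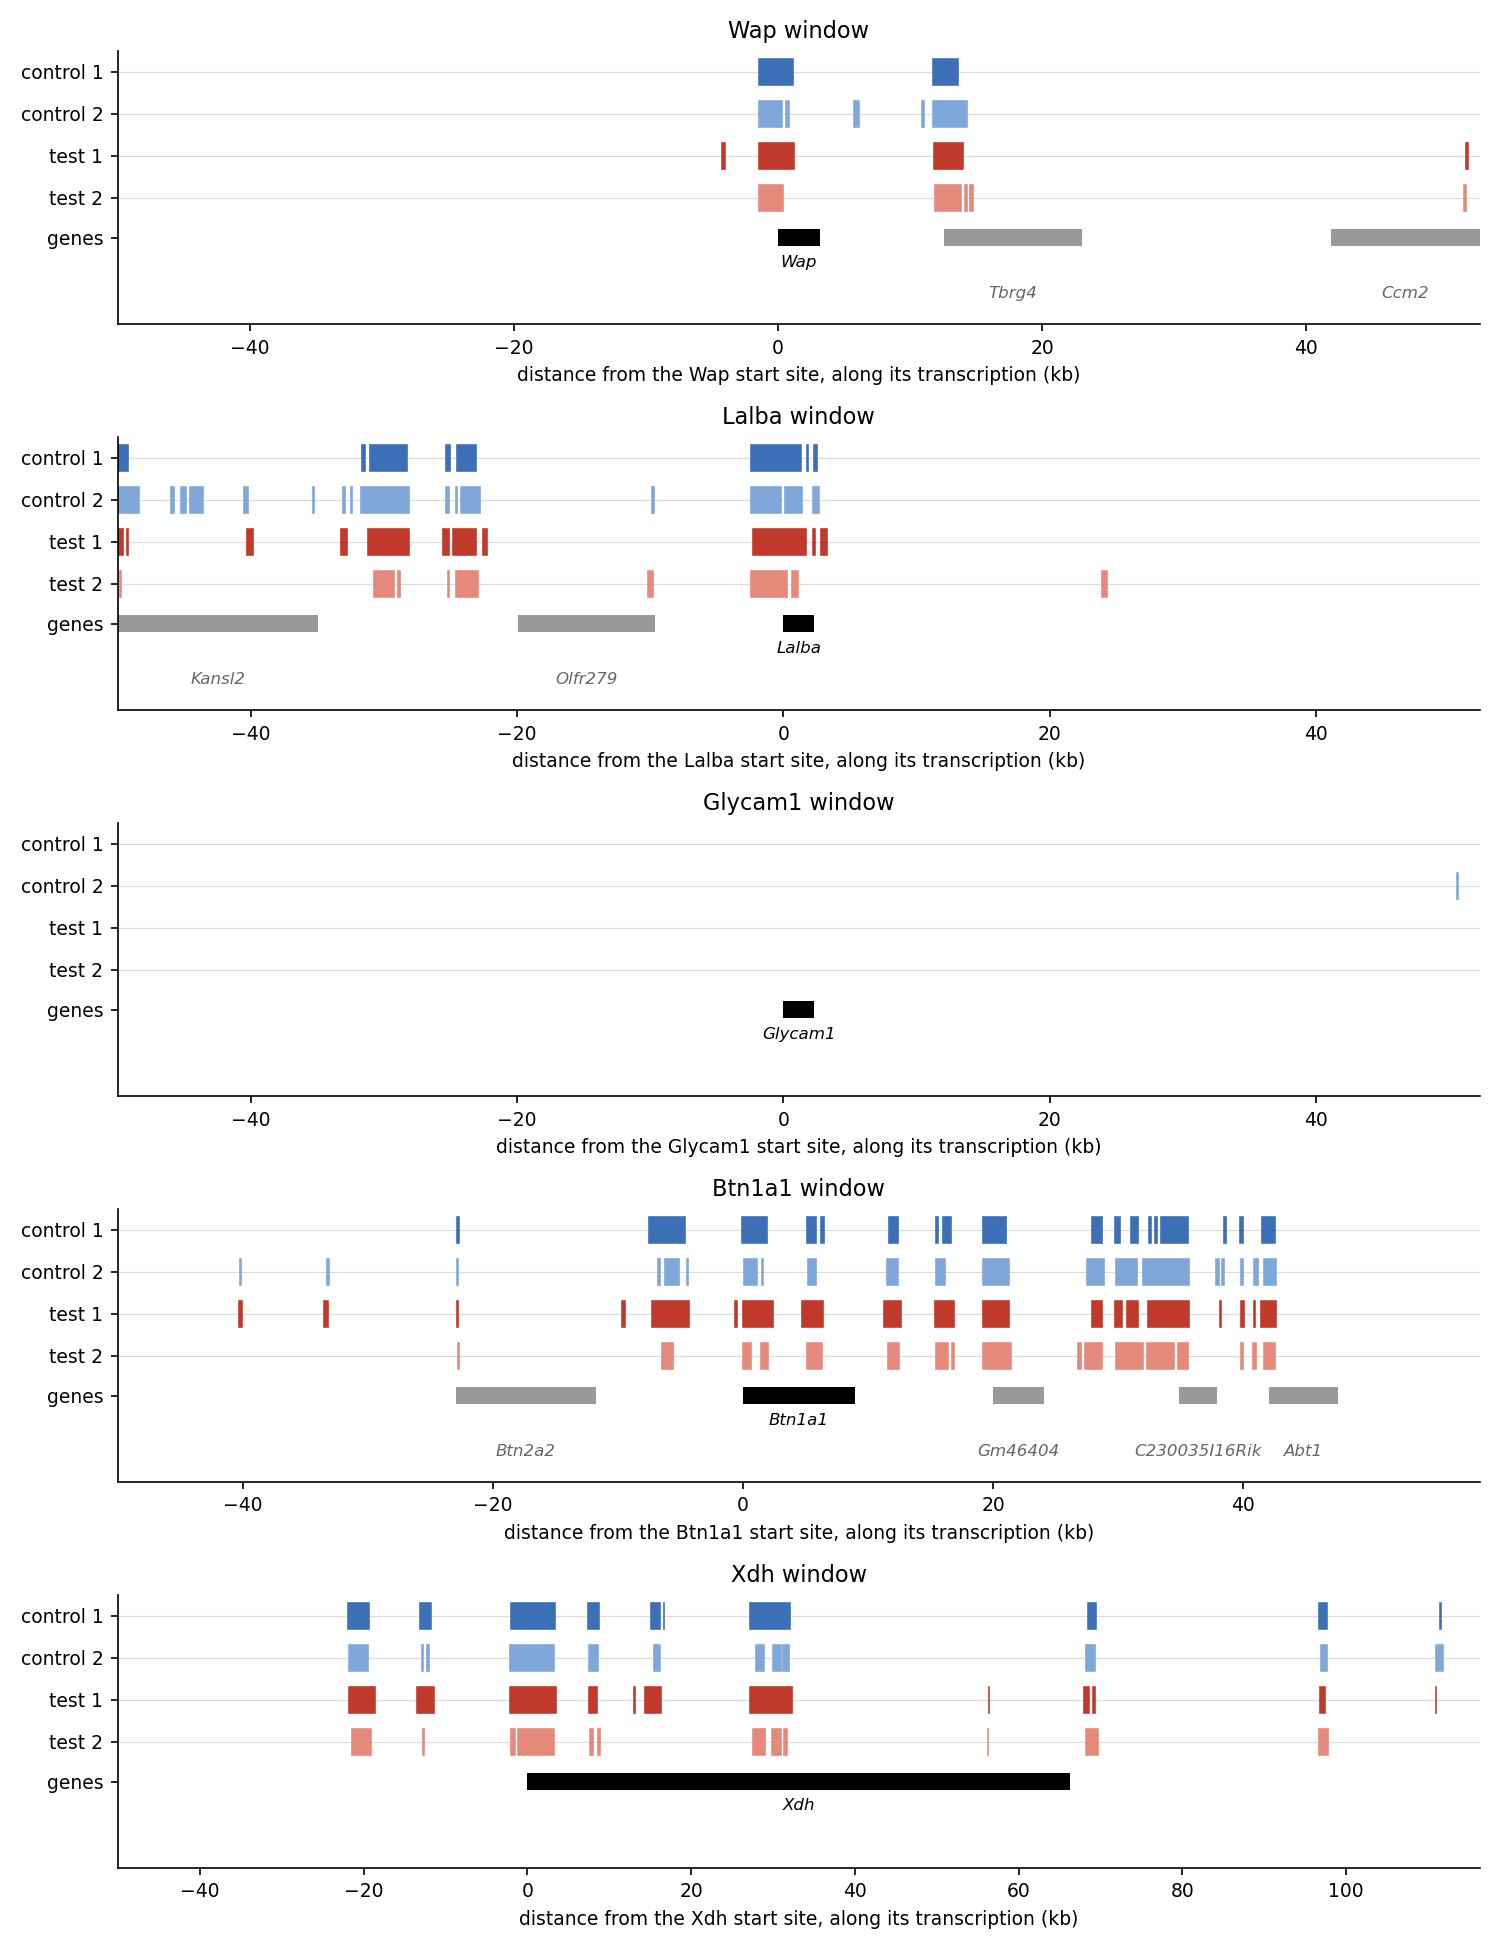
H3K27Ac peaks in the windows of Wap, Lalba, Glycam1, Btn1a1 and Xdh, as distance in kb from the start of each gene along its transcription; filled boxes are peaks, the black bar is the milk protein gene and grey bars are coding or long noncoding neighbours with a promoter peak in at least 2 tumors. Every tumor has a peak over the starts of Wap, Btn1a1 and Xdh and over or beside that of Lalba, and the Glycam1 window holds 1 peak, in control 2.

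The second comparison asked whether the windows were more acetylated in either group. In bulk tissue, fewer cells with the mark and less of the mark in each cell cannot be told apart. Peaks covered 9.71% and 8.64% of the 6 windows in control 1 and 2, and 10.6% and 9.78% in test 1 and 2. Both test tumors were above both control tumors, but control 1 and test 2 were nearly level. The mean was 9.17% ± 0.755 (SD, n = 2) in control and 10.2% ± 0.562 (SD, n = 2) in test tumors, a difference of 1.00 percentage points with p = 0.333 in the two-sided exact permutation test, the smallest p that 2 tumors against 2 can give, so no comparison here could pass a threshold of 0.05. The difference was 0.467 without control 2, 1.53 without control 1 and 0.603 without test 1. With 10 kb either side of the genes it was 1.72 and the groups overlapped. Divided by the share of the genome in peaks in the same tumor, the windows were 3.62 and 3.47 times as covered as the genome in control and 3.95 and 4.14 times in test tumors. The difference of 0.501 again had p = 0.333 in the exact permutation test. Within 10 kb of the starts of the luminal markers, mean coverage was 42.4% and 39.2% in control and 40.0% and 39.2% in test tumors. Within 10 kb of endothelial marker starts it was 3.63% and 4.76% in control and 1.28% and 0.816% in test tumors. For fibroblast markers it was 5.83% and 3.60% in control and 3.48% and 1.01% in test tumors. T cell markers had 1.42% and 1.44% in control and 1.09% and 0.236% in test tumors. The groups overlapped for the other marker lists. Myoepithelial markers had 5.72% and 2.62% in control and 6.13% and 2.68% in test tumors. Adipocyte markers had 2.41% and 2.17% in control and 3.53% and 1.99% in test tumors. Myeloid markers had 17.1% and 15.8% in control and 16.5% and 12.6% in test tumors. The part that cell make-up had in the milk protein values was not tested.

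The mean covered length was 8.93 kb higher in test tumors over the casein cluster and 2.40 kb higher over Btn1a1, and for Lalba it was -1.96 kb test minus control, in a net difference of 9.50 kb over the 6 windows. Peaks covered 11.2% and 7.65% of the casein cluster in control 1 and 2, and 10.6% and 13.1% in test 1 and 2. Control 2 was lowest, test 2 was highest, and the groups overlapped. The difference of 2.44 percentage points had p = 0.667 in the exact permutation test, and it was 0.654 without control 2, 1.18 without test 2, 3.70 without test 1 and 4.22 without control 1. The cluster held 31 and 16 peaks in control and 27 and 27 in test tumors. Control 2 had the lowest window coverage at each of the 5 caseins, which share neighbouring DNA and are not independent. Its whole list covered 2.49% of the genome, against 2.68% in control 1 and in test 1 and 2.36% in test 2. With equal list lengths the difference over the cluster was 2.51 percentage points. Divided by the genome share in peaks, the cluster was 4.18 and 3.07 times as covered as the genome in control tumors. In test tumors it was 3.96 and 5.56 times as covered. The part of list length in the casein values of control 2 was not tested further.

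Gene by gene, 0 of the 10 genes had both test tumors above both control tumors in window coverage, where 17.3% of all covered protein-coding genes did, and 0 of 10 had the reverse order, where 13% did. Csn3 had 17.5% and 13.5% of its window covered in control and 17.3% and 22.5% in test tumors, a difference between group means of 4.40 points that was 2.42 without control 2, 1.81 without test 2 and 6.99 without test 1. Csn1s1 had 2.36% and 0.626% in control and 2.31% and 5.46% in test tumors, a difference of 2.39 that was 1.52 without control 2, 0.810 without test 2, 3.97 without test 1 and 1.18 with 10 kb either side. Csn2 had 1.58% and 0.282% in control and 1.37% and 3.39% in test tumors, a difference of 1.45 that was 0.795 without control 2, 0.439 without test 2 and 2.45 without test 1. With 10 kb either side of Csn2 the difference was 0, so it came from bases farther than that from the gene. At these 3 genes test 2 was the highest tumor, and control 1 and test 1 were close to each other.

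Csn1s2a had 7.47% and 3.70% in control and 6.46% and 6.58% in test tumors, and Csn1s2b had 15.9% and 10.0% in control and 14.2% and 14.2% in test tumors. Without control 2 both differences turned, to -0.954 and -1.69 points, and with 10 kb either side that of Csn1s2b was -0.365. Lalba was the gene with the largest difference the other way, with 9.79% and 13.9% in control and 12.0% and 7.83% in test tumors, a difference of -1.91 that turned to 0.140 without control 2 and 0.191 without test 2. Btn1a1 had 15.1% and 16.0% in control and 20.0% and 15.5% in test tumors. Its difference of 2.21 points rested on test 1 and was -0.0542 without it, 4.46 without test 2 and 5.67 with 10 kb either side of the gene. Xdh had 12.0% and 10.1% in control and 13.2% and 9.16% in test tumors, with group means 0.0992 points apart. The Xdh difference was -0.887 without control 2 and -1.90 without test 1. Wap had group means 0.0543 points apart, and that difference was -0.369 without control 1, -0.395 without test 1 and -1.49 with 10 kb either side. It was also below 0 with peaks of at least 1 kb, equal list lengths, joined peaks and 100 kb windows. In the exact permutation test p was between 0.667 and 1 for every gene.

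**Figure D3:**
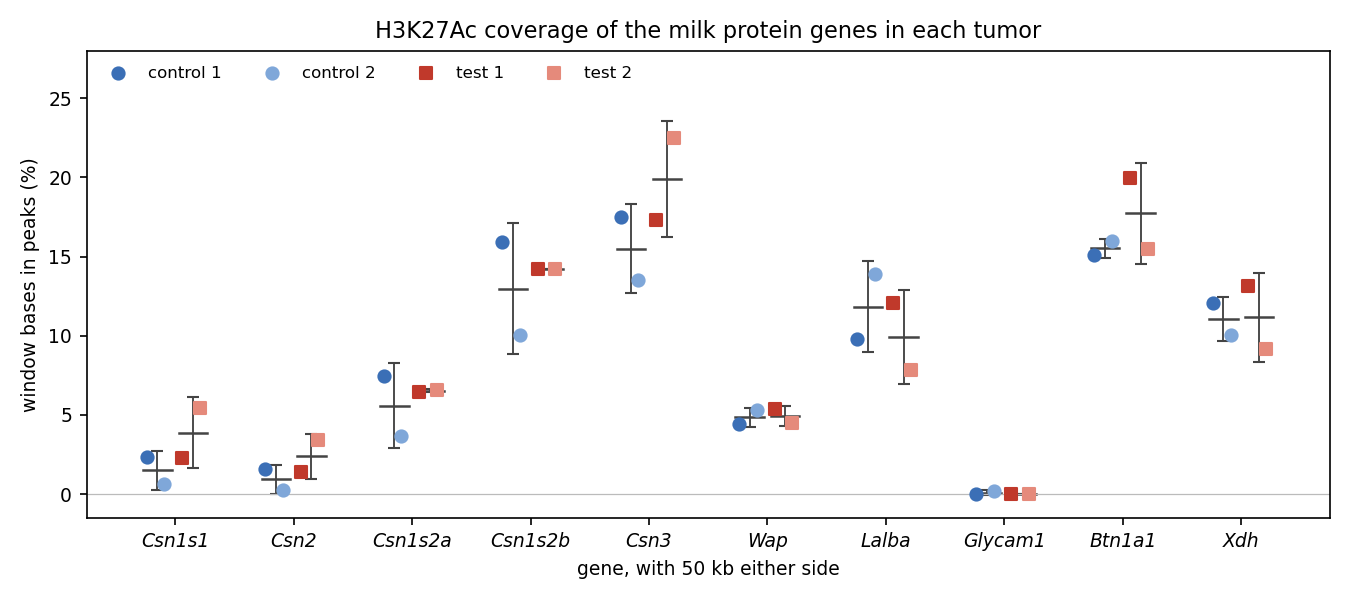
Percent of bases in H3K27Ac peaks in the body and 50 kb either side of each milk protein gene, by tumor; circles are control and squares test tumors, horizontal lines are group means and bars the SD (n = 2). In all 10 genes the points of the groups overlap, and control 2 is the lowest tumor at the 5 caseins.

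After division by the genome share in peaks, Btn1a1 alone of the 10 genes had both test tumors higher, 5.62 and 6.41 times the genome share in control and 7.47 and 6.55 times in test tumors. By that measure 19.4% of all covered genes had both test tumors higher and 12.5% both control tumors higher, so 1 of 10 was not above the background.

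Over all genes, the milk protein genes spread across the range of coverage. The mean over tumors was higher than in 93.7% of protein-coding genes for Csn3, 92.5% for Btn1a1, 87.7% for Csn1s2b, 82.7% for Xdh and 82.2% for Lalba. It was higher than in 65.2% for Csn1s2a, 58.8% for Wap, 43.6% for Csn1s1, 34.6% for Csn2 and 16.1% for Glycam1. The median of the 10 genes was 8.47%, against 3.54% over all genes. By this mean Csn1s2b ranked above Wap, Lalba and Xdh although it had no promoter peak and they did. In control 2, however, Lalba at 13.9% and Xdh at 10.07% were above Csn1s2b at 10.04%. Neighbours in this order, such as Csn3 and Btn1a1 or Xdh and Lalba, overlapped between tumors.

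**Figure D4:**
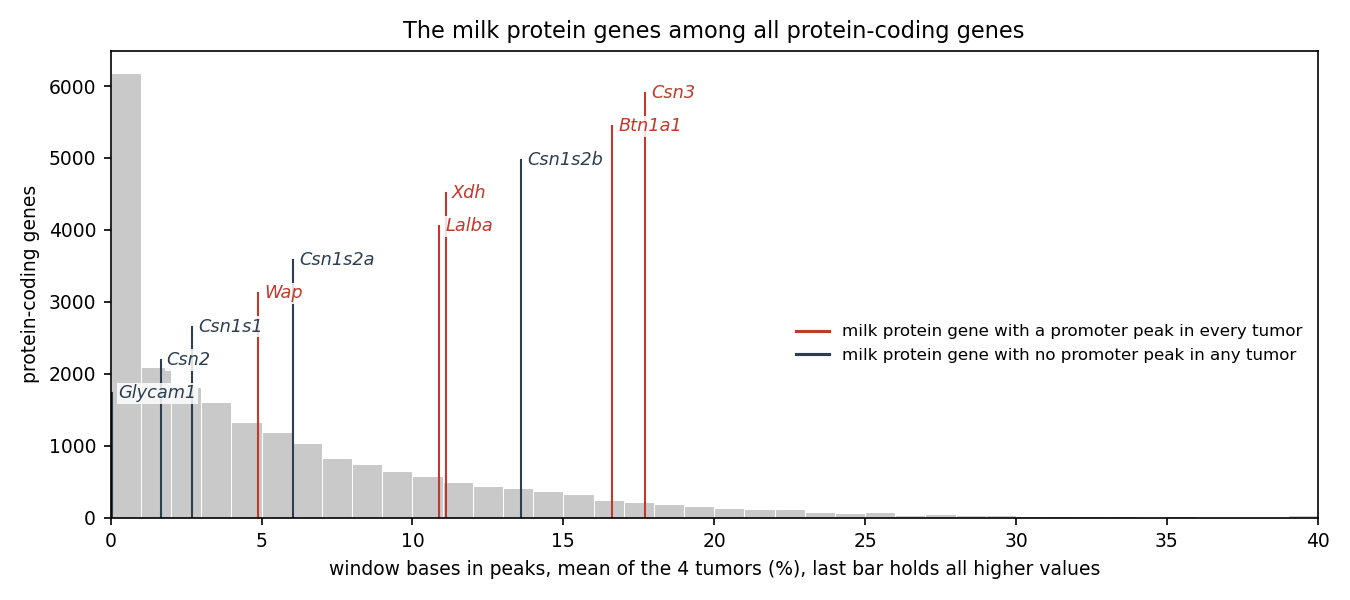
Number of protein-coding genes by percent of window bases in peaks, mean of the 4 tumors, in bins of 1 percentage point, with the milk protein genes marked by lines of arbitrary height. Red lines are genes with a promoter peak in every tumor and dark lines those with none; Csn3 and Btn1a1 stand high and Glycam1 near 0.

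The third comparison looked at separate regions. Peaks of the 4 tumors joined into 93 regions in the 6 windows, of which 36, or 38.7%, had a peak in every tumor, against 38.1% over the series. Regions found in both control tumors and no test tumor numbered 2, or 2.15%, beside 3.41% of all regions. They were an intergenic region at chr5:87846711-87847716, with 567 bp and 632 bp covered in the control tumors, and a region near Btn1a1 at chr13:23427318-23427659, with 192 bp and 191 bp. Regions found in both test tumors and no control tumor numbered 4, or 4.30%, beside 1.47% of all regions. The count was 2 with peaks of at least 1 kb, with equal list lengths or with 10 kb windows. With peaks of at least 1 kb the 2 were other regions, since no peak in the 4 was that wide. When at least 50% of a region had to be covered, 3 test-only stood beside 3 control-only regions. The 4 regions were chr5:87622966-87623740 upstream of Csn1s1, with 458 bp and 775 bp covered, and chr5:87881348-87882259, next to the wide intergenic domain, with 857 bp and 508 bp. The others were chr11:6586390-6586778 in an intron of Ccm2, with 182 bp and 245 bp, and chr17:73893781-73894075 in an intron of Xdh, with 166 bp and 161 bp. None of these 6 regions lay at a milk protein promoter, and all were narrow beside the shared regions, whose median width was 2120 bp. Such regions were narrow over the series too, at medians of 406 bp control-only and 414 bp test-only, against 1688 bp for shared regions.

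Among the 36 shared regions, 7 had more bases covered in both test tumors than in both control tumors, or 19.4%, beside 19.1% of such regions over the series. The reverse order was seen in 1 region, or 2.78%, beside 13.3% over the series. This comparison was added after the values had been seen. The 7 regions included the wide intergenic casein domain, with 13953 bp and 12159 bp covered in control and 14385 bp and 14669 bp in test tumors, and the Csn3 promoter domain, with 9035 bp and 8610 bp in control and 9194 bp and 9074 bp in test tumors. At both domains the gap between the groups was smaller than that between the control tumors. The region upstream of Csn2 described above was another. At Btn1a1 a region in the gene body, chr13:23459437-23461286, had 1202 bp and 769 bp in control and 1802 bp and 1298 bp in test tumors. A region downstream of Btn1a1, chr13:23449001-23450630, had 918 bp and 818 bp in control and 1603 bp and 1361 bp in test tumors. The region with the reverse order was an Xdh intron, chr17:73941338-73942970, with 1468 bp and 1213 bp in control and 1153 bp and 992 bp in test tumors.

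**Figure D5:**
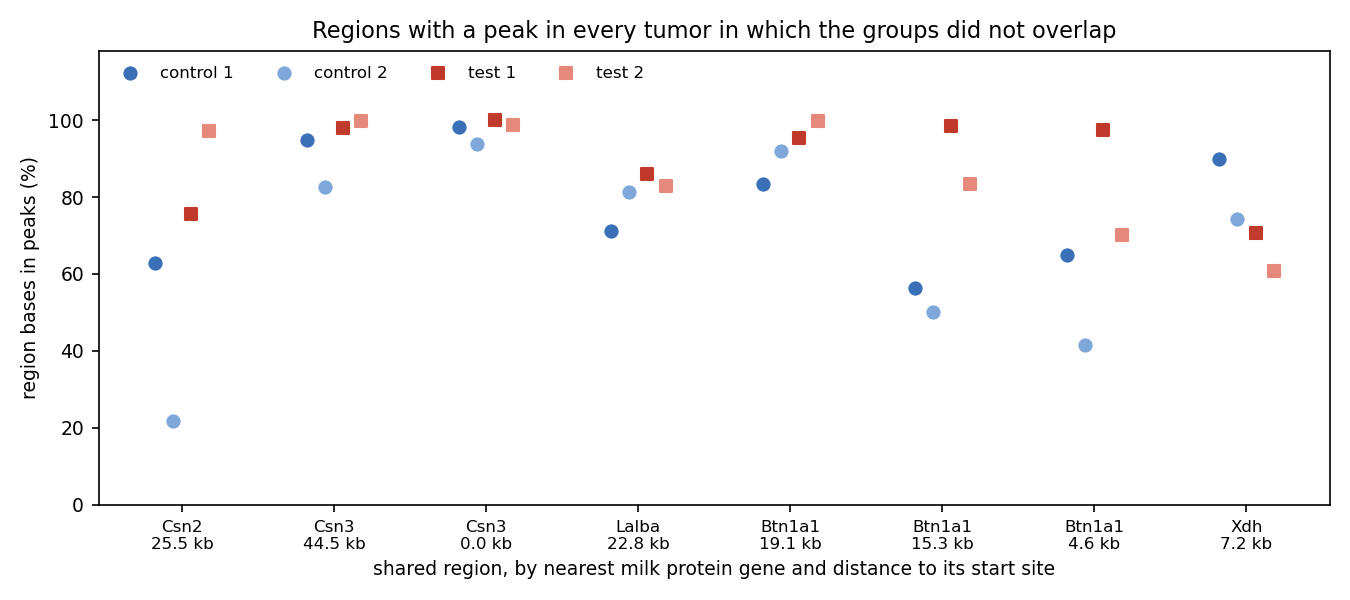
Percent of each region covered by H3K27Ac peaks in the 4 tumors, for the 8 regions with a peak in every tumor whose groups did not overlap; circles are control and squares test tumors, and each region is named by the nearest milk protein gene and the distance to its start in kb. Test tumors lie higher in 7 regions and control tumors in the Xdh intron; the regions were picked for this order.

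Genes with related tasks in the mammary epithelium were read beside the milk protein genes, whose median window coverage was given above. Of 11 genes for other secreted or apical products of mammary epithelium, such as lactoferrin and osteopontin, 8 had a promoter peak in every tumor, beside 49.6% of all protein-coding genes, with a median window coverage of 15.5%. Of these 1 had both test tumors higher and 0 both control tumors higher. It was Lcn2, which encodes the iron-carrier binding protein lipocalin 2, at 26.0% and 26.5% in control and 28.4% and 28.3% in test tumors. Of 17 milk lipid synthesis genes, 12 had a promoter peak in every tumor, with a median of 8.83%, and 3 had both test tumors higher and 3 both control tumors higher. Fasn, fatty acid synthase, had 11.0% and 12.6% in control and 15.0% and 14.6% in test tumors. Olah, the thioesterase that ends fatty acid chains early in mammary epithelium, had 3.34% and 1.90% in control and 4.01% and 3.89% in test tumors. Plin2, the lipid droplet coat protein perilipin 2, had 19.9% and 19.3% in control and 18.6% and 18.4% in test tumors. Over all covered protein-coding genes both test tumors were higher in 17.3% and both control tumors in 13%, so the counts of the secretory and lipid lists were near the background.

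The genes of the prolactin and STAT5 axis carried the mark in both groups. Of 10 genes, 7 had a promoter peak in every tumor, beside 49.6% of all genes: Prlr, Jak2, Stat5a, Stat5b, Cebpb, Socs2 and Cish, and the median window coverage was 14.9%. Prlr, the prolactin receptor, had 4.24% and 3.81% in control and 5.05% and 5.98% in test tumors. Jak2, the kinase it activates, had 6.83% and 6.41% in control and 6.97% and 7.78% in test tumors. Both genes had both test tumors higher. Cebpb had the reverse order, with 47.1% and 46.4% in control and 44.4% and 40.6% in test tumors. These 2 of 10 and 1 of 10 genes stood beside 17.3% and 13% of all covered genes, so the list was near the background.

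The other axis genes overlapped between the groups. Elf5, a transcription factor of alveolar luminal cells, had a promoter peak in control 1 and test 1 only, and 31.9% and 23.1% of its window covered in control and 36.2% and 25.5% in test tumors. Stat5a had 15.5% and 15.2% in control and 20.2% and 11.4% in test tumors. Stat5b and the STAT5 target genes Cish and Socs2 had between 8.80% and 20.4% covered in every tumor. Nfib and Nr3c1, which encodes the glucocorticoid receptor, had no peak at the start used here, and the Nfib window was covered between 16.9% and 34.6%.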

How the data were processed

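H3K27Ac chromatin immunoprecipitation sequencing of 4 tumors was used, and the matched inputs were not analysed here. The authors aligned reads to mm10 with BWA and called peaks in each tumor against its input with MACS2 (q 0.01). The deposited lists give chromosome, start, end and joined caller peak names in base pairs, with no score, signal or p-value. The file names state a merging distance of 200 bp and a cleaning step whose content is not given in the sources used here. Deeper sequencing can give more and wider peaks, so depth and acetylation are mixed in every covered length, and no counting interval can be given.

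Groups followed the genotype in the labels, and tumors were numbered in accession order. Gene positions came from GENCODE M21 (GRCm38, the mm10 assembly), with the start at the 5′ end of the gene. Window coverage was the percent of bases in peaks within the gene body and 50 kb either side. The windows of Csn1s2b and Csn3 missed each other by 1152 bp, and the casein cluster was read as 1 window across that gap. A peak or region counted with at least 1 bp of overlap, and peaks that overlapped or touched were joined across tumors. Differences are test minus control. Group means of windows and of each milk protein gene were compared by the two-sided exact permutation test over tumors.

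All 10 milk protein genes are named, as are window genes with a promoter peak in any tumor or lying between caseins, the prolactin and STAT5 genes, and up to 3 genes of each other mammary list with the largest difference among those whose groups did not overlap. The members and lists were chosen with earlier results of these data known. Analyses used Python 3.11.15 and numpy 2.4.6, and interval routines were tested on simulated data. Alternatives varied window size, promoter, peak width, joining, list length and tumors. Division by the genome share in peaks was chosen after seeing the data.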

Additional observations from a re-analysis of the deposited data

How the results depend on the processing

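Over the alternatives run, test minus control stayed positive for all 6 windows pooled and for the casein cluster. Leaving out a tumor at a time gave 0.467 to 1.53 percentage points for the pooled windows and 0.654 to 4.22 for the casein cluster. Both cluster extremes came from leaving out a control tumor, control 2 for the lowest and control 1 for the highest. The 5 genes with a promoter peak in every tumor became 4 with peaks of at least 1 kb alone. In that setting, and with 10 kb windows, the pooled groups overlapped.

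Counts of group-specific regions were small and moved with most settings. Control-only regions, those in both control and no test tumors, fell from 2 to 0 with peaks of at least 1 kb, to 1 with equal list lengths, to 1 with peaks within 1 kb joined and to 1 with 10 kb either side. The count of test-only regions fell from 4 to 2 with peaks of at least 1 kb, with equal list lengths and with 10 kb either side. It was 6 with 100 kb either side. With peaks of at least 1 kb the 2 were not among the 4, in which no peak was that wide. When at least 50% of a region had to be covered there were 3 of each kind. Leaving out a tumor, which leaves 1 in a group, gave 2 to 12 control-only and 5 to 17 test-only regions.

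Milk protein genes with both test tumors higher went from 0 to 1 with equal list lengths, 2 with peaks within 1 kb joined, 1 with 100 kb either side and 1 after division by the genome share. Shares over all genes were computed for the main setting and the division only, 17.3% and 19.4%, so the other counts have no background. Counts with a tumor left out compare 1 tumor with 2 and are not given.

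Among single genes the sign turned in 16 of the settings run and held in 90. In 4 the difference was 0, for Csn2 with 10 kb either side and for Glycam1 with peaks of at least 1 kb, with 10 kb and without control 2. For Wap the difference of 0.0543 points became -0.0601 with peaks of at least 1 kb, -0.0339 with equal list lengths, -0.103 with peaks joined, -1.49 with 10 kb and -0.0192 with 100 kb either side. Leaving out a tumor gave Wap -0.395 (without test 1) to 0.504, with -0.369 without control 1. Csn1s2b turned to -0.365 with 10 kb, and leaving out a tumor gave it -1.69 (without control 2) to 4.17. Csn1s2a ran from -0.954 (without control 2) to 2.82. Leaving out a tumor, Lalba ran from -4.02 to 0.191 (without test 2), with 0.140 without control 2, and Btn1a1 from -0.0542 (without test 1) to 4.46 (without test 2), with 5.67 with 10 kb either side. Xdh was -0.00752 with peaks of at least 1 kb and ran from -1.90 (without test 1) to 2.10, with -0.887 without control 2. Window size also moved values whose sign held. With 10 kb either side the difference was 1.18 for Csn1s1, 1.72 for Csn1s2a and -0.676 for Lalba. With 100 kb it was 1.97 for Csn1s2a, 2.79 for Csn1s2b, 2.56 for Csn3 and -1.09 for Lalba. The Xdh difference of 0.0992 became 0.337 with 10 kb and 0.734 with 100 kb. The cause of these changes was not tested.

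No paired analysis was possible because the labels give no replicate numbers that tie a control tumor to a test tumor. With 2 tumors per group and no read depth, coverage differences of a few percentage points were within the spread between tumors for most genes.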
